A study of Mus musculus with 27 samples.

Results

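Metallothioneins are small cysteine-rich proteins that bind zinc, copper and cadmium, and Slc30a1 encodes ZnT1, the transporter that carries zinc out of the cell across the plasma membrane. The set described here holds 4 of the 55401 genes in the table: the metallothionein genes Mt1 and Mt2, Mtf1, which encodes their metal-sensing transcription factor, and Slc30a1. They were taken by gene name, and the names were picked with their levels over the 9 groups already known. Their levels and fold changes are therefore given as a description, with no test. All 4 passed the filter on low counts in both arms of the study.

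The libraries came from 4T1, a mouse mammary carcinoma line, and were made from polyadenylated RNA. Clones were made with a CRISPR-Cas9 knockout of Drp1 (gene Dnm1l, clones gs1B8 and gs2_B4), of Fis1 (clones gs1_B11 and gs2_F6) or of Mff (clones gs1_B4 and gs1_C8) and were set against unedited parental 4T1 cells. Wild-type 4T1 cells given leflunomide for 3 days, a drug that inhibits the pyrimidine synthesis enzyme Dhodh, were set against cells given its vehicle, DMSO. Each of the 9 groups had 3 libraries, each clone is a single clonal line, and all 6 clones share the same 3 parental libraries. Drp1, Fis1 and Mff act in mitochondrial fission, and the study asked how their loss and the drug altered gene expression. Nothing in the labels says that the libraries of a group were separate cultures, so the errors and p-values below measure only the spread between these samples.

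When free zinc rises in a cell, MTF1 moves to the nucleus and binds metal response elements in the promoters of Mt1, Mt2 and Slc30a1. The metallothioneins then hold the metal and ZnT1 exports it. Mt1 and Mt2 also respond to glucocorticoids, to interleukin-6 through STAT3, and to oxidative stress, and mammary tissue handles large amounts of zinc for milk.

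Mt2 and Mt1 lie side by side on the plus strand of GRCm38 chromosome 8. Mt2 (ENSMUSG00000031762.7) spans chr8:94172664-94173568 and Mt1 (ENSMUSG00000031765.8) spans chr8:94179082-94180327, with 5513 bases between them. Mtf1 (ENSMUSG00000028890.13) lies at chr4:124802104-124849800 and Slc30a1 (ENSMUSG00000037434.7) at chr1:191906767-191913247, both on the plus strand. The windows printed here are the RefSeq promoters of the genes that hold the core of the metal response element, from 250 bases before to 50 after the RefSeq start, in build GRCm38.p6. They are shown because both metallothioneins were highest in 1 clone and lowest in another. Capitals mark the core motif, TGCACNC or TGCGCNC, searched on both strands, so GTGTGCA is a match on the opposite strand. The windows are chr8:94178839-94179138 for Mt1, chr8:94172368-94172667 for Mt2 and chr1:191906531-191906830 for Slc30a1, plus strand.
Mt1: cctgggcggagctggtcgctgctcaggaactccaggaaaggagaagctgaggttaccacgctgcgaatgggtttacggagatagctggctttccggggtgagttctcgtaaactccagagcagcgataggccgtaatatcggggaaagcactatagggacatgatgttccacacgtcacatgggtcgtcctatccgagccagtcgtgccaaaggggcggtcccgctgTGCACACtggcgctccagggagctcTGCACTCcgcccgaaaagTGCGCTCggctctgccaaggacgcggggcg
Mt2: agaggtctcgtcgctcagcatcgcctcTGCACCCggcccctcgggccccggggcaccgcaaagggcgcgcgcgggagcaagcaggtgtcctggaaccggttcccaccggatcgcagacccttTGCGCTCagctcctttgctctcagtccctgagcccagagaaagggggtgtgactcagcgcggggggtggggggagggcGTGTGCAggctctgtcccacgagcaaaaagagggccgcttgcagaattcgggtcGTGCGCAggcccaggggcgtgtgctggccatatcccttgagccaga
Slc30a1: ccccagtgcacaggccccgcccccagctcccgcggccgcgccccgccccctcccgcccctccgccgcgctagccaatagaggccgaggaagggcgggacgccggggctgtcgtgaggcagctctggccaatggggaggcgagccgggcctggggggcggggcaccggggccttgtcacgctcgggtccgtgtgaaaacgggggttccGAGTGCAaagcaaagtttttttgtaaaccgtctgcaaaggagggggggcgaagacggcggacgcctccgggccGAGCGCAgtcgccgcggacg

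The Mt1 window held 3 separate motifs, the Mt2 window 4 and the Slc30a1 window 2, while these letters were not found in the Mtf1 window (chr4:124802299-124802598). Of 32851 promoter windows of the same length, 25.7% held at least 1 motif, 6.14% at least 2, 1.31% at least 3 and 0.3% at least 4. Further motifs lay past the window, inside the first exon annotated by GENCODE M21, 2 for Mt1 and 3 for Mt2. Other annotated transcripts start after these sites, at 94179211 and 94179241 for Mt1 and at 94172860 for Mt2. The sites are printed with 10 bases on each side. The first exons of Slc30a1 and Mtf1 were not searched past the window, nor was sequence before any window.
Mt1, chr8:94179163-94179189: accgcctgctGGGTGCAaaccctttgc
Mt1, chr8:94179177-94179203: gcaaacccttTGCGCCCggactcgtcc
Mt2, chr8:94172666-94172692: gaaaaagggcGTGTGCAggcggcgggg
Mt2, chr8:94172685-94172711: cggcgggggcGCGTGCAtggtgccttc
Mt2, chr8:94172719-94172745: gcggagctttTGCGCTCgacccaatac

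**Figure D1:**
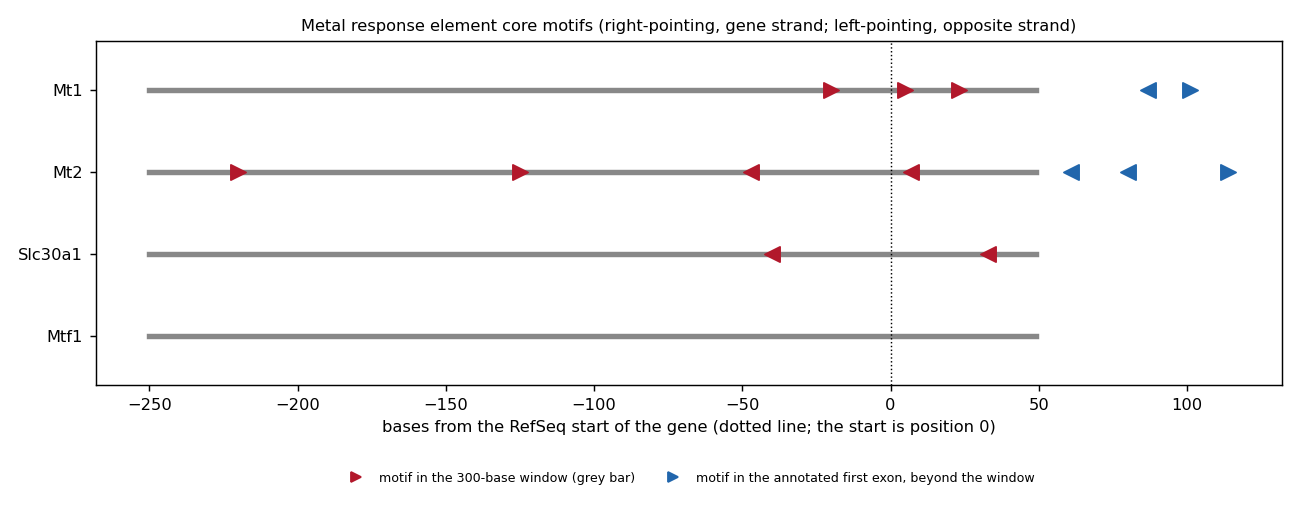
Positions of the metal response element core motif near the 4 genes, in bases from the RefSeq start at position 0. Grey bars are the 300-base windows, triangles point right for a motif on the gene's strand and left for the opposite strand, and blue triangles lie in the first exon past the window. First exons past the window were searched for Mt1 and Mt2 only. The Mt1 and Mt2 windows hold 3 and 4 motifs, the Slc30a1 window 2, and the Mtf1 window has no match.

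Depth and library quality set the precision of these values. The smallest library of clones and parental cells held 20715396 counts and the largest 31295901, while the 6 drug and vehicle libraries held between 18492028 and 24658735. Mt1 had 61 to 1105 counts in a library, Mt2 67 to 1122, Mtf1 291 to 630 and Slc30a1 362 to 740. DMSO replicate 3 stood apart, with 23.2% of its counts in the ribosomal RNA gene CT010467.1 against 1.60% to 5.72% in the other 26 libraries, so the leflunomide fold changes of the 4 genes are also given without it. The targeted transcripts were lower in their clones: Dnm1l averaged 68.4 and 41.1 CPM in the Drp1 clones against 217 CPM in parental cells, Fis1 20.7 and 17 CPM in the Fis1 clones against 46.8 CPM, and Mff 46.7 and 42.1 CPM in the Mff clones against 84.2 CPM. All 6 epithelial markers were expressed, and their summed level lay between 1830 and 3510 CPM in all 27 libraries.

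Levels are in CPM, counts relative to library size after scaling with edgeR's TMM factors over all 27 libraries. Fold changes are edgeR coefficients. Their standard error (SE) was derived from the coefficient and its quasi-likelihood F statistic. It rests on a spread estimated over all libraries of the arm, not only those compared. Clone libraries lay all above or all below the 3 parental ones for 44.7% of the 13941 genes tested in gs1B8, 57.8% in gs2_B4, 54.5% in gs1_B11, 42.2% in gs2_F6, 51.7% in gs1_B4 and 54.5% in gs1_C8. With leflunomide the share was 26.2% of 12603 genes. Split by side, all clone libraries lay above the parental ones for 21% of genes and below for 23.7% in gs1B8, with 29.3% and 28.5% in gs2_B4 and 25% and 29.5% in gs1_B11. These shares above and below were 19.9% and 22.3% in gs2_F6, 25.9% and 25.8% in gs1_B4, 26.8% and 27.6% in gs1_C8, and 13.6% and 12.6% with leflunomide over DMSO. Of the 4 genes here, the libraries did not overlap for 1 in gs1B8 and in gs1_C8, and for 2 in each of the other four clones and with leflunomide. The genes were chosen on these comparisons, so nothing is read from those counts. In such bulk samples fewer expressing cells and less RNA per cell cannot be told apart.

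Mt2 was higher than in parental cells in 5 of the 6 clones and lower in the Fis1 clone gs2_F6. In the Drp1 clone gs2_B4 it stood at 41.8, 41.3 and 36.1 CPM, against 9.09, 8.17 and 7.20 CPM in parental cells, a log2 fold change of 2.27 ± 0.14 (SE, n = 3 each). The Mff clone gs1_B4 had 39.2, 31.0 and 27.7 CPM, 1.97 ± 0.14 over the same parental libraries on the log2 scale. Every library of both clones lay above every parental library, by a wide gap. Another 3 clones, 1 from each genotype, lay in between, and their ranges overlapped. Mt2 was at 24.7, 22.2 and 21.4 CPM in gs1B8 (log2 1.47 ± 0.15), at 19.8, 20 and 25.1 CPM in gs1_B11 (1.41 ± 0.15) and at 25.4, 19.1 and 19.3 CPM in gs1_C8 (1.37 ± 0.15), again against 7.20 to 9.09 CPM in parental cells.

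The Fis1 clone gs2_F6 had 3.90, 3.43 and 2.82 CPM of Mt2, all below the parental libraries, and the log2 fold change was -1.28 ± 0.18 (SE, n = 3 each). The Fis1 clones thus lay on opposite sides of the parental cells for Mt2, with means of 21.6 ± 3.0 CPM in gs1_B11 and 3.38 ± 0.54 CPM in gs2_F6 (SD, n = 3). The 3 groups of unedited cells gave a narrow range. Mt2 averaged 8.38 ± 1.2 CPM with leflunomide, 8.86 ± 1.4 CPM with DMSO and 8.15 ± 0.94 CPM in parental cells, so the 5 clones that were high stood above the unedited cells of both arms. Their lowest library had 19.1 CPM, and the highest unedited library, DMSO replicate 3, had 10.1 CPM. In order of mean over the 9 groups, neighbouring ranges were apart between gs1_B4 and gs1B8, between gs1_C8 and DMSO and between gs2_F6 and parental cells, and all other neighbours overlapped.

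Mt1 was well above parental cells in 2 clones, far below in 1 and close to them in 3. In gs2_B4 it stood at 41.1, 37.8 and 37.1 CPM, against 11.3, 9.82 and 12.1 CPM in parental cells, a log2 fold change of 1.79 ± 0.14 (SE, n = 3 each). In gs1_B4 it had 23.9, 18.9 and 20.8 CPM, with a log2 fold change of 0.91 ± 0.15. In gs2_F6 it had 3.23, 2.04 and 2.56 CPM, and the log2 fold change was -2.11 ± 0.19. In these 3 clones no library overlapped the parental range. The same 3 clones gave the highest, the second and the lowest mean of Mt2. In order of Mt1 mean, gs2_B4, gs1_B4, leflunomide-treated cells and gs2_F6 each lay apart from their neighbours, and the groups between gs1_B4 and leflunomide overlapped with their neighbours.

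In the other three clones Mt1 overlapped the parental range, although Mt2 did not. Mt1 was at 11.6, 10.7 and 10.9 CPM in gs1B8, against 9.82 to 12.1 CPM in parental cells, and the log2 fold change was -0.01 ± 0.15. In gs1_C8 the values were 13.6, 11.7 and 12.8 CPM (log2 0.19 ± 0.15). In gs1_B11 they were 11.3, 9.55 and 16.6 CPM (log2 0.17 ± 0.15), and without the third of these libraries the value was -0.07. Libraries of this clone differed more in Mt1 (SD 3.7 CPM) than those of any other group. The fold changes of Mt2 and Mt1 therefore differed by 1.48 in gs1B8, 1.24 in gs1_B11 and 1.19 in gs1_C8 on the log2 scale, and by 0.48 in gs2_B4, 0.83 in gs2_F6 and 1.06 in gs1_B4.

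**Figure D2:**
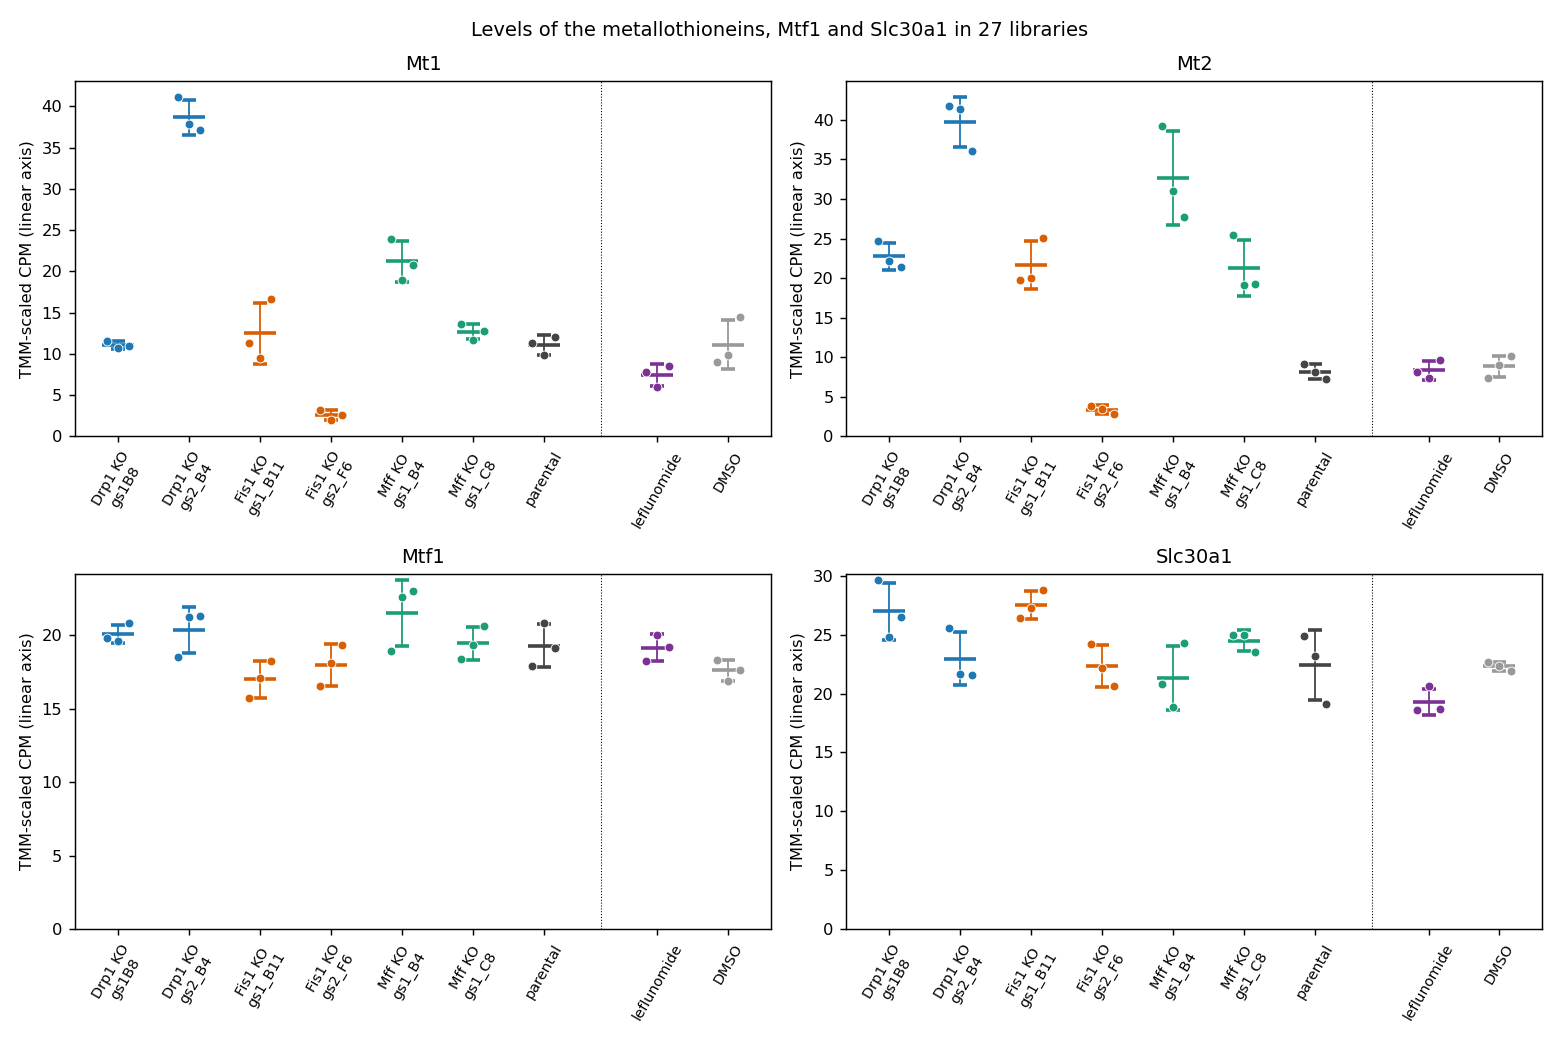
Level of Mt1, Mt2, Mtf1 and Slc30a1 in TMM-scaled CPM in the 27 libraries, 1 point per library, with the mean (bar) and SD (whiskers) of each group of 3. Mt2 lies between 19.1 and 41.8 CPM in 5 clones, against 7.20 to 9.09 CPM in parental cells, and both metallothioneins are lowest in gs2_F6. Mtf1 and Slc30a1 stay within narrow ranges.

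The balance between the metallothioneins lay towards Mt2 in all 6 clones. For each Mt2 read there were on average 0.489 ± 0.022 Mt1 reads in gs1B8, 0.976 ± 0.057 in gs2_B4, 0.570 ± 0.092 in gs1_B11, 0.778 ± 0.16 in gs2_F6, 0.656 ± 0.082 in gs1_B4 and 0.604 ± 0.065 in gs1_C8 (SD, n = 3 each), while parental cells had 1.38 ± 0.27. The highest clone library had a ratio of 1.03, in gs2_B4, and the lowest parental library 1.20. DMSO libraries ran from 1.08 to 1.43, so the clones were also below the vehicle cells, while leflunomide libraries, from 0.819 to 0.957, overlapped those of gs2_B4 and gs2_F6. This held in gs2_F6, where both genes were low, as in gs2_B4, where both were high. A ratio within a library does not depend on how libraries are scaled. The 6 clones share the parental libraries, and no test was made of the ratio.

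The summed level of Mt1 and Mt2 was 78.4 ± 4.9 CPM in gs2_B4 and 53.8 ± 8.1 CPM in gs1_B4, against 19.2 ± 1.2 CPM in parental cells (SD, n = 3 each), which is 4.08 and 2.80 times the parental mean. It was alike in 3 clones, at 33.8 ± 2.2 CPM in gs1B8 (1.76 times), 34.1 ± 6.6 CPM in gs1_B11 (1.77 times) and 34.0 ± 4.4 CPM in gs1_C8 (1.77 times). In gs2_F6 it was 5.99 ± 0.98 CPM, 0.312 times the parental mean. Within each genotype the libraries of the pair of clones did not overlap in summed level.

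**Figure D3:**
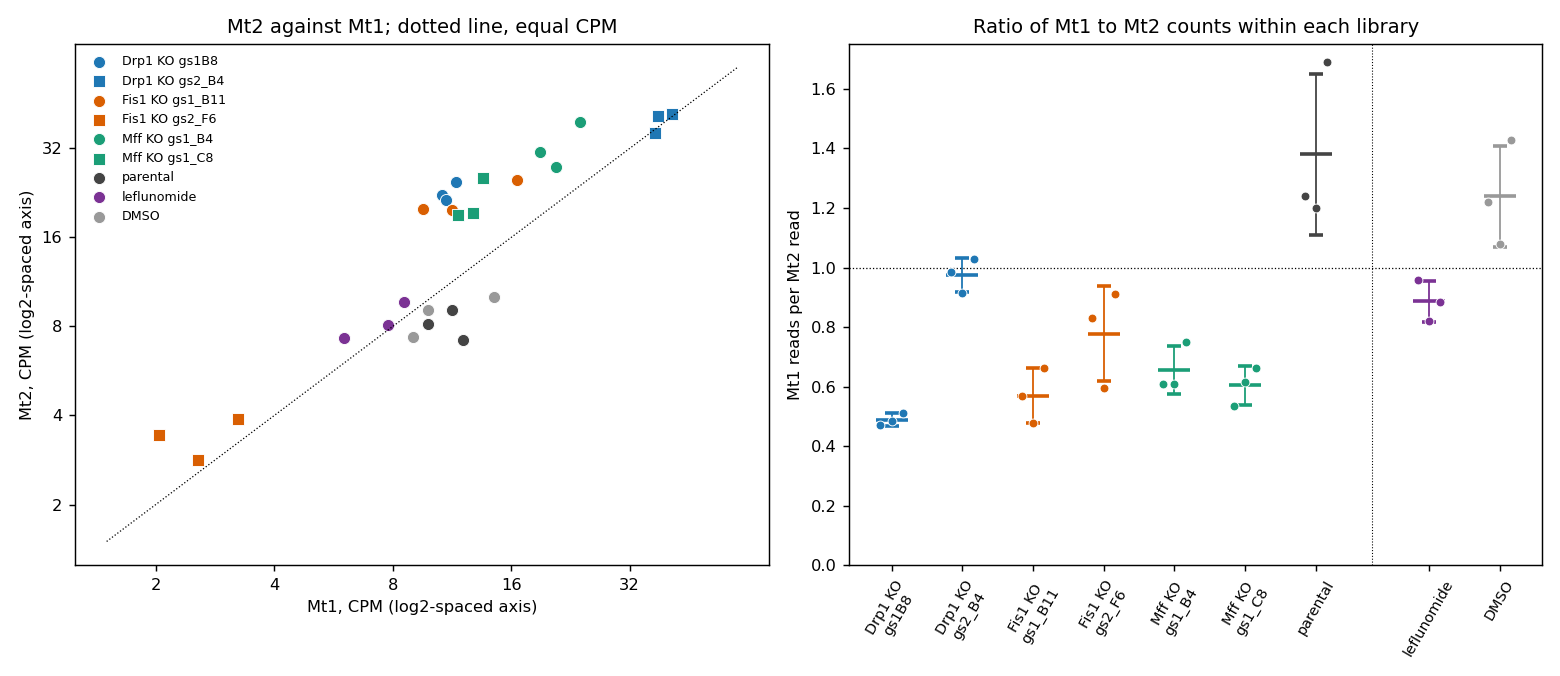
Left, Mt2 against Mt1 in CPM on log2-spaced axes, 1 point per library, with a dotted line at equal CPM. Right, Mt1 reads per Mt2 read in each library on a linear axis, with the mean and SD of each group of 3. Clone libraries have ratios from 0.470 to 1.03, against 1.20 to 1.69 in parental cells, and leflunomide libraries from 0.819 to 0.957, against 1.08 to 1.43 with DMSO.

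Mt3 and Mt4, the brain and squamous epithelium metallothioneins, were not measurably expressed: Mt3 had at most 2 counts in a library and Mt4 had 0. All 27 values of each of the 4 genes were whole numbers, so the deposited estimates show no fractional sharing of reads between Mt1 and Mt2. Antisense gene Gm45774 overlaps Mt2 and had at most 9 counts, and 1700034H15Rik overlaps Slc30a1 and had at most 17. Mtf1 overlaps 1110065P20Rik on the opposite strand, which had up to 207 counts. Whether counting used strand is not given in the sources used here, so reads in such an overlap may be assigned to either gene.

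Among the expressed genes around the metallothioneins, the 4 described here were lower than in parental cells in all 6 clones, also where Mt2 was higher. They lie within 200000 bases on either side and passed the filter in all comparisons. They were picked by position after the data were seen, so their values are a description, and not every gene of the region is reported. Nup93, a nuclear pore gene past Mt1, had log2 fold changes from -0.57 to -0.27 over the 6 clones. Ogfod1, a ribosomal protein hydroxylase gene before Mt2, ran from -0.73 to -0.23, Nudt21, a pre-mRNA cleavage factor gene, from -0.47 to -0.11, and Bbs2, a gene of the primary cilium, from -0.60 to -0.08. All of these values were below 0, and they share the parental libraries. In gs2_F6, where Mt1 and Mt2 were also low, these 4 neighbours ran from -0.41 to -0.31.

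Mtf1, the sensor, was level across the study. Its group means ran from 17 CPM in gs1_B11 to 21.5 CPM in gs1_B4, 1.26 times apart, while the means of Mt1 were 14.8 times apart and those of Mt2 11.7 times. In gs1_B4 Mtf1 stood at 18.9, 22.6 and 23 CPM, against 17.9, 20.8 and 19.1 CPM in parental cells (log2 0.13 ± 0.08, SE, n = 3 each). In gs1_B11 it stood at 15.7, 17.1 and 18.2 CPM (log2 -0.18 ± 0.09). The log2 fold changes of the other four clones ran from -0.11 to 0.06. In all 6 clones at least 1 library overlapped the parental range. In order of mean, every neighbouring pair of the 9 groups overlapped.

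Slc30a1, the exporter, also varied little. Its means were 27 ± 2.4 CPM in gs1B8, 23 ± 2.3 CPM in gs2_B4, 27.5 ± 1.2 CPM in gs1_B11, 22.3 ± 1.8 CPM in gs2_F6, 21.4 ± 2.7 CPM in gs1_B4 and 24.5 ± 0.85 CPM in gs1_C8 (SD, n = 3 each), while parental cells averaged 22.4 ± 3.0 CPM. The 3 libraries of gs1_B11, at 26.4, 27.3 and 28.8 CPM, were all above those of parental cells, at 24.9, 23.2 and 19.1 CPM, and the log2 fold change was 0.30 ± 0.10 (SE). In gs1B8 the values were 29.6, 24.8 and 26.5 CPM (log2 0.26 ± 0.10), and 1 library fell just below the highest parental one. The other four clones overlapped parental cells, with log2 fold changes from -0.10 to 0.12. In gs2_B4, the clone with the highest metallothionein level, Slc30a1 had a log2 fold change of 0.02 ± 0.10.

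**Figure D4:**
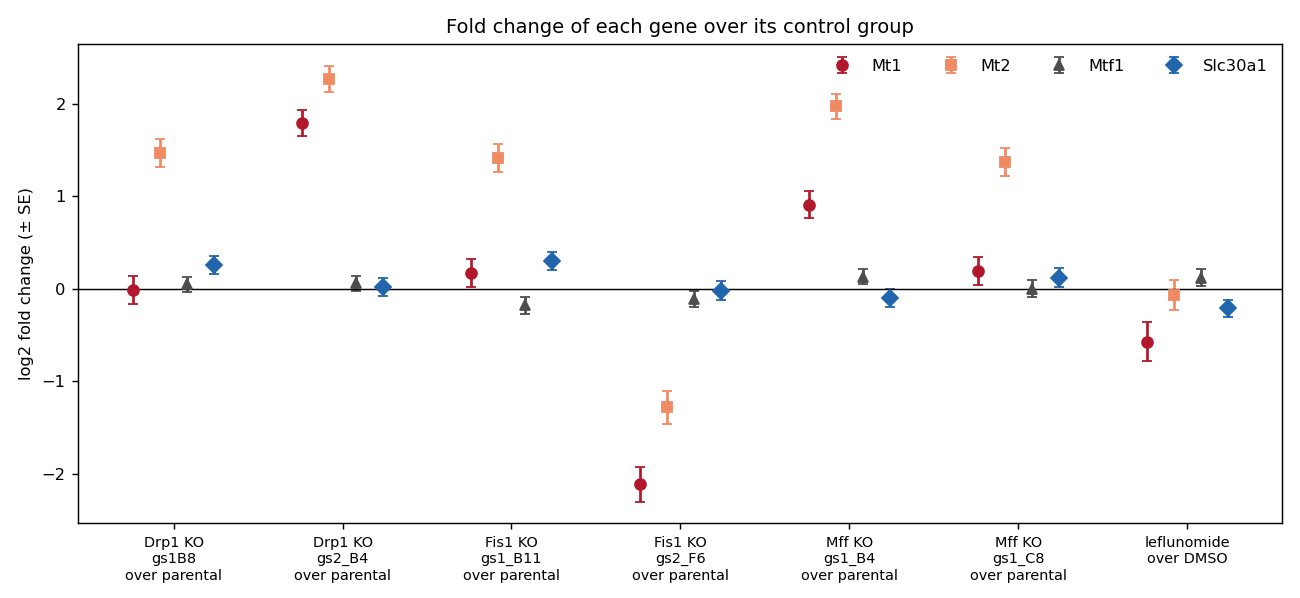
Log2 fold change (± SE) of Mt1, Mt2, Mtf1 and Slc30a1 in each clone over parental cells and with leflunomide over DMSO. Mt2 lies above 0 in 5 clones, between 1.37 and 2.27, and at -1.28 in gs2_F6. Mtf1 and Slc30a1 lie between -0.21 and 0.30 in all 7 comparisons.

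The size of these differences can be set beside that of other genes. In gs2_B4 2.88% of the 13941 genes tested had a larger absolute log2 fold change than Mt2 and 4.18% a larger one than Mt1. In gs2_F6 6.17% exceeded Mt2 and 3.31% exceeded Mt1. In the other four clones between 2.97% and 6.66% exceeded Mt2, while for Mt1 the share was 97.8% in gs1B8, 63.8% in gs1_B11, 11.3% in gs1_B4 and 59.1% in gs1_C8. For Mtf1 the share was 61.7% or more in every clone, and for Slc30a1 36.0% or more. The median log2 fold change of all genes lay between -0.023 and 0.004 in the 7 comparisons.

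Compared per length, in CPM per kilobase of transcript, the metallothioneins were the most abundant of the 4 in 8 of the 9 groups, and in gs2_F6 the order of Mt1 and Slc30a1 depended on the Mt1 transcript used. In gs2_B4 the mean levels were 77.7 for Mt2, 70.5 for Mt1, 4.38 for Slc30a1 and 2.66 CPM per kilobase for Mtf1. In parental cells they were 20.2 for Mt1, 16 for Mt2, 4.27 for Slc30a1 and 2.53 CPM per kilobase for Mtf1. In gs2_F6 the level of Mt1 lay close to that of the exporter, at 4.76 CPM per kilobase for Mt1 and 4.26 for Slc30a1. With the longer annotated Mt1 transcripts of 633 and 1085 bases, an alternative chosen after seeing the data, Mt1 was at 4.13 and 2.41 CPM per kilobase there, below Slc30a1. These levels use transcripts of 511 bases for Mt2, 549 for Mt1, 5244 for Slc30a1 and 7631 for Mtf1.

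With leflunomide, Mt1 and Slc30a1 were lower than with DMSO, and Mt2 and Mtf1 overlapped. Mt1 was at 7.77, 6.0 and 8.56 CPM with leflunomide, against 9.0, 9.82 and 14.5 CPM with DMSO, a log2 fold change of -0.57 ± 0.21 (SE, n = 3 each). No library overlapped. The highest DMSO value was from replicate 3, the library rich in ribosomal RNA, and without it the log2 fold change was -0.33 ± 0.18. Mt2 was at 8.12, 7.32 and 9.69 CPM with leflunomide, against 7.37, 9.06 and 10.1 CPM with DMSO (log2 -0.07 ± 0.16, and 0.03 ± 0.18 without DMSO replicate 3). The ratio of Mt1 to Mt2 reads was 0.957, 0.819 and 0.884 with leflunomide, against 1.22, 1.08 and 1.43 with DMSO, again without overlap.

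Slc30a1 was at 18.6, 20.6 and 18.7 CPM with leflunomide, against 22.7, 22.3 and 21.9 CPM with DMSO, a log2 fold change of -0.21 ± 0.09 (SE, n = 3 each), and of -0.22 ± 0.11 without DMSO replicate 3. Mtf1 was at 18.2, 20 and 19.2 CPM with leflunomide, against 18.3, 16.9 and 17.6 CPM with DMSO (log2 0.12 ± 0.09, and 0.12 ± 0.11 without DMSO replicate 3), and the ranges overlapped. Cell type markers also differed between these groups. The 6 epithelial markers summed to 1830 to 2080 CPM with leflunomide, against 2450 to 2540 CPM with DMSO. The 6 leukocyte markers summed to 5.70 to 9.37 CPM with leflunomide, against 1.87 to 2.54 CPM with DMSO, nearly all of it Csf1r, while Cd3e and Adgre1 were among those at 0 in all libraries. The part of these differences in the values of Mt1 and Slc30a1 was not tested.

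Marker levels differed in the clones as well. The leukocyte markers summed to 0.662 to 4.06 CPM in the 6 clones, against 3.98 to 4.71 CPM in parental cells, and 5 of the 6 were below 1 CPM in every library. The 5 fibroblast markers, of which Col3a1 and Lum were at 0, summed to 3.72 to 3.99 CPM in gs1B8, 4.10 to 4.54 CPM in gs2_B4, 3.47 to 4.79 CPM in gs1_B11, 2.17 to 3.11 CPM in gs2_F6, 4.91 to 6.70 CPM in gs1_B4 and 6.42 to 8.08 CPM in gs1_C8, against 4.21 to 4.26 CPM in parental cells. The 1 that could be tested, Pdgfra, fell in gs2_F6 (log2 -0.68) and rose in gs1_B4 (0.45) and gs1_C8 (0.83). All 4 endothelial markers were below 1 CPM. The epithelial markers summed to 2390 to 2560 CPM in gs1B8, 2910 to 3270 CPM in gs2_B4, 3220 to 3510 CPM in gs1_B11, 2940 to 3310 CPM in gs2_F6, 2530 to 3020 CPM in gs1_B4 and 2880 to 3260 CPM in gs1_C8, against 2920 to 2950 CPM in parental cells. They lay wholly below parental cells in gs1B8 and wholly above in gs1_B11. Their part in the metallothionein levels was not tested.

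Over the 27 libraries Mt1 and Mt2 were more alike than either was with Mtf1 or Slc30a1. Pearson's r of log2(CPM + 1) was 0.88 between Mt1 and Mt2 (Spearman's rho 0.86), and 0.65 within groups after the group means were taken out. Libraries of a group share a clone or treatment, so the 27 points are not independent. The r of Mt1 with Mtf1 was 0.38 and with Slc30a1 0.11, and that of Mt2 was 0.38 with Mtf1 and 0.34 with Slc30a1. Between Mtf1 and Slc30a1 it was -0.22. Among 9748 genes with a mean of at least 5 CPM, Mt2 was the gene with the fifth highest r to Mt1.

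The genes most like each member were named by the highest Pearson r over the same 27 libraries, the members left out. For Mt2 they were Adgrg6, an adhesion G protein-coupled receptor gene (r = 0.923), Sema6a, a semaphorin gene (0.918), P4ha2, a collagen prolyl hydroxylase gene (0.906), Parp8 (0.899) and Ahi1 (0.891). P4ha2 averaged 23.8 ± 2.1 CPM in gs2_B4 and 4.99 ± 0.59 CPM in gs2_F6, against 4.93 ± 1.2 CPM in parental cells (SD, n = 3 each). Sema6a averaged 20.9 ± 3.5 CPM in gs2_B4 and 0.127 ± 0.043 CPM in gs2_F6, against 1.30 ± 0.40 CPM in parental cells. For Mt1 they were Qrich1 (0.912), Aig1 (0.892), Unc13b, a synaptic vesicle priming gene (0.889), Lrig1, a gene for an inhibitor of epidermal growth factor receptor signalling (0.885), and Kri1 (0.883). Lrig1 averaged 126 ± 4.9 CPM in gs2_B4 and 63.8 ± 2.2 CPM in gs2_F6, against 88.3 ± 0.94 CPM in parental cells.

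For Mtf1 the closest were Itpr2, an inositol trisphosphate receptor gene (r = 0.782), Tgoln1 (0.770), Rapgef2 (0.760), Ppfibp1 (0.756) and Ptpn22, a phosphatase gene (0.747). For Slc30a1 they were Zfp609 (0.821), Ccdc88c (0.792), the chromatin remodeller gene Arid1a (0.779), Plekha1 (0.771) and B930095G15Rik (0.768). An r of at least 0.8 was reached by 63 genes for Mt2, 48 for Mt1, 1 for Slc30a1 and 0 for Mtf1. With 9 groups behind the 27 libraries, such values are a description of shared group patterns.

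The other zinc transporters are not among the 4 genes and were tested with edgeR's quasi-likelihood test, two-sided, with Benjamini-Hochberg adjustment over all genes and a threshold of 0.05. Slc30 proteins move zinc out of the cytosol and Slc39 proteins move it in. Of 23 such genes listed, 16 could be tested, and the other seven had at most 5 counts in any library. Of the 16, edgeR called 7 in gs1B8, with 6 that rose and 1 that fell, where 29.5% of all genes were called (12.1% up and 17.4% down). In gs2_B4 it called 11, with 5 that rose and 6 that fell, where 50.3% of all genes were called (24.1% up and 26.3% down). The count was 11 in gs1_B11, with 6 that rose and 5 that fell, where 47.3% of all genes were called (21.4% up and 25.9% down). For gs2_F6 it was 11, with 7 that rose and 4 that fell, where 31.3% of all genes were called (13.1% up and 18.2% down). Clone gs1_B4 had 9, with 4 that rose and 5 that fell, where 47.7% of all genes were called (20.9% up and 26.8% down). Clone gs1_C8 had 10, with 3 that rose and 7 that fell, where 46.7% of all genes were called (21.5% up and 25.2% down). These are 43.8%, 68.8%, 68.8%, 68.8%, 56.2% and 62.5% of the 16 in the same order, and the medians of their log2 fold changes lay between -0.11 and 0.09. Of the 59 calls in clones, 46 held under all 12 alternative analyses. The calls of single genes named below, in this and the other lists, are ones that held. Exceptions are Slc39a14 with leflunomide, Ndrg1 in gs2_B4, Slc39a10 in gs2_F6 and gs1_C8, and Pdgfra, for which this was not examined. Further exceptions, marked where named, are Slc39a7 in gs1B8 and gs2_F6, Dusp1 other than in gs1_B4, and Lcn2 in gs1B8. Other single-gene calls that did not hold are not named in the text. A gene may thus have been called in more clones than are named.

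Slc39a14, a gene for an importer of zinc, iron and manganese, was called in all 7 comparisons. It rose in the Drp1 and Fis1 clones, to 108 ± 2.5 CPM in gs1B8, 108 ± 4.6 CPM in gs2_B4, 104 ± 4.0 CPM in gs1_B11 and 113 ± 0.67 CPM in gs2_F6, against 72.6 ± 4.9 CPM in parental cells (SD, n = 3 each; log2 0.52 to 0.63, adjusted p up to 6.8e-07). It fell in the Mff clones, to 49.6 ± 2.9 CPM in gs1_B4 and 58.6 ± 5.0 CPM in gs1_C8 (log2 -0.58 and -0.32, adjusted p of 1.8e-07 and 0.0002). It was thus alike in gs2_B4 and gs2_F6, where Mt1 and Mt2 were highest and lowest. With leflunomide it was the 1 transporter called of 16 (6.25%, against 2.79% of all genes, 1.84% up and 0.944% down), at 53.4 ± 1.1 CPM, against 69.6 ± 3.7 CPM with DMSO (log2 -0.38 ± 0.06, adjusted p = 0.026). That call was lost without DMSO replicate 1 (-0.34), 2 (-0.42) or 3 (-0.38) and without leflunomide replicate 1 (-0.39) or 2 (-0.36).

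Among the exporters, Slc30a6, whose product works in the secretory pathway, rose in gs1B8, gs2_B4, gs2_F6 and gs1_B4 (log2 0.27 to 0.34) and fell in gs1_C8 (-0.25 ± 0.05, adjusted p = 0.00065). Slc30a7, a gene for a Golgi zinc transporter, rose in gs1B8 (0.23) and fell in gs1_B11 (-0.24) and gs1_C8 (-0.37). Slc30a9, which encodes a mitochondrial zinc transporter, rose in gs1B8 (0.18) and gs1_C8 (0.28), and Slc30a4 rose in gs1_C8 (0.30). The log2 fold changes of all 5 exporters tested lay between -0.37 and 0.34 in the 6 clones, against 1.28 or more in size for Mt2.

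Among the importers, Slc39a3, a gene for a zinc importer of the plasma membrane, fell in 5 clones, to between 2.91 and 3.44 CPM, against 5.08 ± 0.27 CPM in parental cells. Its log2 fold changes there ran from -0.80 to -0.57, and in gs1_B4 it was -0.28 (adjusted p = 0.054). Slc39a10, a gene that MTF1 represses, rose in gs2_B4 (0.41) and gs1_B11 (0.56). Slc39a7, which releases zinc from the endoplasmic reticulum, rose in gs2_B4 (0.33), gs1_B11 (0.24) and gs1_B4 (0.32) and fell in gs1_C8 (-0.31). It was also called higher in gs1B8 (0.17) and gs2_F6 (0.14), and each of these calls was lost in 1 of the 12 alternatives. Slc39a8, named after its values were seen, was low throughout, with 2.07 ± 0.24 CPM in gs1_B4 (log2 1.68) and 0.218 ± 0.034 CPM in gs1_B11 (-1.5), against 0.632 ± 0.20 CPM in parental cells. In gs2_F6 it had 3 counts in all, against 43 in parental cells, or 0.0607 times the parental level (95% counting interval 0.012 to 0.19, counting error only). Slc39a8 was thus lowest in the clone where Mt1 and Mt2 were lowest, but it was not highest where they were highest. In gs2_B4 it was at 0.433 ± 0.075 CPM (log2 -0.55) and in gs1B8 at 0.357 ± 0.042 CPM (-0.82), neither called.

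**Figure D5:**
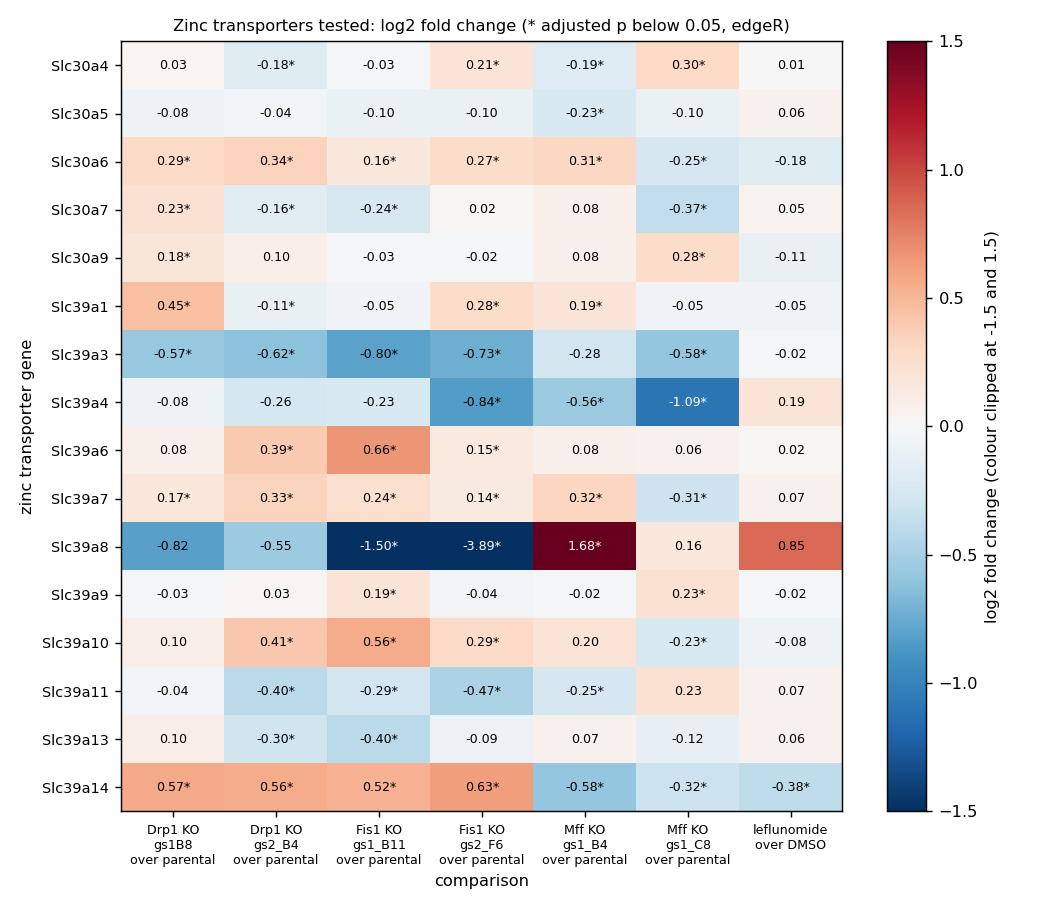
Log2 fold change of the 16 zinc transporter genes tested, in 6 clones over parental cells and with leflunomide over DMSO, with an asterisk for an adjusted p below 0.05 (edgeR) and the colour clipped at 1.5 either way. Slc39a14 is higher in the Drp1 and Fis1 clones and lower in the Mff clones, and Slc39a3 is lower in 5 clones.

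Other genes that respond to MTF1 gave both directions. Counts in this and the following lists stand beside the shares of all genes called up and down, given with the zinc transporters. All 6 listed were tested. Slc39a10, which MTF1 represses, is counted by its own direction, so the counts mix induced and repressed genes. It is among those that rose in gs2_B4 and gs1_B11, the 1 that rose in gs2_F6 and the 1 that fell in gs1_C8. Of the 6, 0 rose and 1 fell in gs1B8, 4 and 0 in gs2_B4, 3 and 1 in gs1_B11, 1 and 2 in gs2_F6, 2 and 2 in gs1_B4, and 1 and 1 in gs1_C8. Pgf, which encodes placental growth factor, rose in gs2_B4 and gs1_B4, to 9.06 ± 2.3 and 7.85 ± 1.2 CPM, against 2.13 ± 0.08 CPM in parental cells (SD, n = 3 each; log2 2.07 and 1.85, adjusted p of 9e-08 and 5.5e-07). It fell in gs1_B11, to 0.284 ± 0.081 CPM (log2 -2.87), where Mt2 was high. Gclc, an enzyme gene of glutathione synthesis, rose in gs1_B11 (0.69) and gs1_C8 (0.22) and fell in gs2_F6 (-0.31). Ndrg1 fell in gs1_B4, to 59.4 ± 5.6 CPM against 126 ± 24 CPM in parental cells, and was called higher in gs2_B4 (log2 0.43, adjusted p = 0.013), a call lost in 3 of the 12 alternatives.

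Of the other known inducers of metallothioneins, the glucocorticoid and the STAT3 and interleukin-6 lists had more genes that rose than fell in every clone. That includes gs2_F6, where Mt1 and Mt2 were lowest. Of all genes, more were called lower than higher in every clone. The lists were chosen with earlier results known and were not tested as sets. Of 8 glucocorticoid-responsive genes tested, 2 rose and 0 fell in gs1B8, 4 and 2 in gs2_B4, 5 and 2 in gs1_B11, 2 and 0 in gs2_F6, 4 and 3 in gs1_B4, and 3 and 1 in gs1_C8. Klf9, a transcription factor gene, rose in gs2_B4 (1.08), gs1_B11 (0.61) and gs2_F6 (0.56) and fell in gs1_B4 (-0.75). Fkbp5, which encodes a co-chaperone of the glucocorticoid receptor, rose in gs1B8 (0.18) and gs1_B11 (0.22) and fell in gs1_C8 (-0.74). Dusp1 rose in gs1_B4 (1.26). It was also called higher in gs1_B11 (0.69), in gs1_C8 (0.66) and with leflunomide (1.24), calls lost in 3, 5 and 3 of the 12 alternatives. Tsc22d3, named after its values were seen, fell in gs1_B11 (-0.86) and gs1_B4 (-0.59). Sgk1, a kinase gene, rose in 5 clones, to between 93.6 and 151 CPM, against 61.5 ± 2.8 CPM in parental cells, and in gs1_C8 it was at 63.5 ± 3.4 CPM. It also rose with leflunomide, to 110 ± 5.6 CPM against 49.2 ± 5.1 CPM with DMSO (log2 1.17 ± 0.09, adjusted p = 0.0015). Of 9 STAT3 and interleukin-6 family genes tested, 5 rose and 2 fell in gs1B8, 6 and 1 in gs2_B4, 3 and 2 in gs1_B11, 2 and 1 in gs2_F6, 3 and 1 in gs1_B4, and 6 and 2 in gs1_C8. Osmr, a receptor gene for oncostatin M, rose in gs2_B4 (1.26), gs1_B4 (0.60) and gs1_C8 (0.80) and fell in gs2_F6 (-0.79 ± 0.13, adjusted p = 0.00011). Bcl3, at 0.702 ± 0.32 CPM in parental cells, rose in gs1B8 (0.96), gs2_B4 (2.33), gs2_F6 (1.28) and gs1_C8 (1.15). In gs1_B4, where Mt1 and Mt2 were high, Bcl3 was not called (-0.13). Lcn2, at 0 CPM in parental cells, rose to 4.47 ± 0.65 CPM in gs2_B4 and to 0.572 ± 0.12 CPM in gs2_F6. It also rose to 0.736 ± 0.52 CPM in gs1_B4 and to 0.376 ± 0.28 CPM in gs1_C8. In gs1B8 Lcn2 was at 0.186 ± 0.066 CPM and called higher, a call lost in 1 of the 12 alternatives. In gs1_B11 it was not called.

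Of 7 NRF2 targets, which respond to oxidative stress, between 3 and 5 fell in each clone and at most 2 rose. Of all genes, between 17.4% and 26.8% were called lower in a clone and between 12.1% and 24.1% higher. Nqo1 fell to 0.27 ± 0.15 CPM in gs2_B4, against 14 ± 2.0 CPM in parental cells (log2 -5.69 ± 0.22, adjusted p = 1.5e-13), in the clone with the highest Mt1 and Mt2. G6pdx fell in 5 clones (log2 -0.94 to -0.34). Of 6 heat shock genes tested, between 2 and 4 fell in each clone and at most 1 rose. Of 10 copper handling genes tested, between 1 and 6 were called in each clone, and Atp7a, a copper exporter gene, fell in gs2_B4 (-0.60), gs1_B11 (-0.90) and gs1_B4 (-0.76). Over all 74 listed genes, 61 were tested in the clones, with 26, 42, 41, 28, 37 and 34 called in the same order of clones as above, or 42.6%, 68.9%, 67.2%, 45.9%, 60.7% and 55.7%. Of all genes, 29.5%, 50.3%, 47.3%, 31.3%, 47.7% and 46.7% were called in these clones. With leflunomide 4 of 60 listed genes were called (6.67%), against 2.79% of all genes.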

How the data were processed

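RNA was extracted with TRIzol and libraries were made from polyadenylated RNA with the KAPA RNA HyperPrep kit, per the labels' protocols. Reads were trimmed with Trimmomatic 0.35 and quantified with RSEM against GRCm38 (mm10), per the submitters' processing notes. The aligner, the RSEM version and the use of strand are not stated there. The values as deposited are RSEM expected counts per gene, 91.5% of them whole, and were rounded to whole numbers.

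Column names gave genotype and clone code but not the clone number of the labels, so clones are named by code. Genes were filtered with filterByExpr, scaled by TMM and tested with edgeR 4.0.16 (R 4.3.3) by quasi-likelihood, in 1 fit of the 21 knockout-arm libraries and 1 of the 6 drug-arm libraries, with Benjamini-Hochberg adjustment over all genes tested. The procedure was tested on simulated data with the same spread for every gene and few changed genes. These data differ in both respects, so that trial does not measure the error rate here. No 2 replicates agreed within counting noise. Likeness between genes used log2(CPM + 1) over genes averaging at least 5 CPM.

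The 4 genes, the gene lists and the marker lists were chosen with earlier results of these data known. From each list, the text may name up to 4 genes called in the most of the 7 comparisons, ties by the largest change. Alternatives were DESeq2 1.42.0, its size factors, no low-count filter, all 27 libraries in 1 fit, a run block, ribosomal RNA left out and each library left out. Promoter sequences are from RefSeq tables and the first-exon site sequences from GENCODE M21 transcripts.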

Additional observations from a re-analysis of the deposited data

Results flagged for a closer look

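Mt2 had log2 fold changes over parental cells of opposite sign in the Fis1 clones, 1.41 in gs1_B11 and -1.28 in gs2_F6, 2.68 apart, with every library on its clone's side. The difference itself was not tested, here or for the genes below, which were picked up because all libraries of one clone lay above the parental cells and all of the other below.

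In the other flagged genes the value is the first clone's log2 fold change minus the second's. Between the Fis1 clones gs1_B11 and gs2_F6, Gclc differed by 1.0 and G6pdx by -0.97. Between the Mff clones gs1_B4 and gs1_C8, Pgf differed by 2.23, Fkbp5 by 0.90, Slc39a7 by 0.63, Slc30a6 by 0.56, Gclc by -0.35, Atox1 by -0.50, Il6ra by -0.93 and Klf9 by -1.08. Hspb1, a small heat shock protein gene, differed by -8.06 between the same clones, a fitted value and no bound, since gs1_B4 held 1 count against 35 in parental cells (ratio 0.0244, 95% counting interval 0.000601 to 0.145).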

How the results depend on the processing

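All 336 alternative values for the 4 genes moved by less than the spread between libraries or kept their direction. Leaving out 1 library at a time gave a log2 fold change of Mt2 from 2.19 to 2.35 in gs2_B4 and from -1.38 to -1.18 in gs2_F6, of Mt1 from -0.07 to 0.34 in gs1_B11, and with leflunomide from -0.70 to -0.33 for Mt1 and from -0.20 to 0.03 for Mt2. The count of listed genes called with leflunomide (4) was 7 with no low-count filter and 12 with all 27 libraries in 1 fit, and 1 to 11 when 1 library was left out; for zinc transporters (1) it was 0 to 2. The highest counts came without leflunomide replicate 3. The cause was not tested. Of the 5 genes most like each member, Spearman's rho kept 2 for Mt1, 3 for Mt2, 3 for Mtf1 and 2 for Slc30a1, and the 21 knockout-arm libraries alone kept 0, 3, 3 and 1. In gs2_F6 the level per length of Mt1 was 4.13 or 2.41 CPM per kilobase with longer transcripts. Of the values for single listed genes, 2409 kept their call status, 135 lost and 48 gained a call.

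Serial run numbers in the column names were not taken as pairing the samples, since in no comparison was every same-numbered correlation of deviations over 0.1 (range -0.115 to 0.236). In gs1B8 they were 0.182, 0.094 and 0.152, in gs1_B11 0.177, 0.098 and 0.236, and in gs2_F6 0.02, 0.081 and 0.035. In these clones each library correlated best with the parental library of its own number, a hint from the data and not from the design. The block raised the count of listed genes called in all 6 clones. With the run as a replicate block, Mt2 was 2.27 ± 0.12 in gs2_B4 and -1.28 ± 0.16 in gs2_F6, Mt1 with leflunomide -0.56 ± 0.15, and listed genes called numbered 30, 46, 44, 31, 39 and 41 in gs1B8, gs2_B4, gs1_B11, gs2_F6, gs1_B4 and gs1_C8 and 3 with leflunomide. Mt1 and Mt2 had as few as 61 and 67 counts in a library of gs2_F6, which limits their precision there.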
